A study of Mus musculus with 25 samples.

Results

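The genes described here encode the kinases and scaffolds of the mitogen-activated protein (MAP) kinase cascade in the lung of C57BL/6 mice, an inbred laboratory strain, whose food had been cut by 2/3. The members are all probe sets with 1 annotated symbol beginning Map2k, Map3k, Map4k or Mapk; the set was proposed with earlier results of these data, the Map3k6 rise among them, in view. This gave 31 genes out of 8251 named by such probe sets, read by 48 of the 12488 probe sets on the Affymetrix MG-U74Av2 array. A probe set is a group of short oligonucleotides, and some probe sets can match more than 1 transcript. A filter on dim signal passed 29 of the 48, for 23 genes, and these were tested.

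A MAP kinase cascade passes a signal through kinases that phosphorylate each other in sequence. MAP4K kinases act near the receptor and on MAP3K kinases; MAP3K kinases phosphorylate MAP2K kinases; MAP2K kinases phosphorylate the MAP kinases on a threonine and a tyrosine; and these act on further kinases, the MAPKAPK family among them, and on transcription factors such as Fos and Jun. The ERK branch is best known for growth factor signals and the JNK and p38 branches for stress and cytokines. The cascade is switched by phosphorylation, which RNA arrays do not read, so every value below is a level of messenger RNA and not of kinase activity.

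The 24 arrays formed 11 groups. Calorie restriction (CR) had lasted 2, 4, 12, 24, 48, 72 or 96 h, with 2 arrays a time. The controls, labelled fed, were taken at 0 h (4 arrays) and, 2 arrays a time, after 2, 4 and 12 h. Their descriptions name an unbroken diet and the 2/3 cut in 1 phrase; here they stand as fed controls, with that doubt. Each group has an a array and a b array. The labels do not say whether the letters stand for different mice or for a repeated hybridization, and in the latter case the p-values reflect technical variation alone. Fed 0 h holds numbers 1 and 2, with both letters for each, and the other groups hold number 1 alone. Late CR below means 24 to 96 h (8 arrays). It is compared with fed 0 h because whole days from a common start would share its clock time, which the labels do not give. Early CR means 2, 4 and 12 h (6 arrays), compared with fed arrays of the same hour. A probe set is called where limma's Benjamini-Hochberg adjusted p over all 7440 tested probe sets was under 0.05. Signals are scaled intensities, set beside each other within a probe set and never between probe sets.

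Facts of the whole array set bear on what follows. The a and b arrays of a group correlated at 0.94 to 0.976 over the tested probe sets. The highest signal fell in a high range of 74440 to 99040 on 12 arrays and a low range of 31600 to 54310 on the other 12. The high range held CR 2, 12, 24 and 48 h, fed 12 h and number 1 of fed 0 h; the low range held CR 4, 72 and 96 h, fed 2 and 4 h and number 2 of fed 0 h, so CR 2 h and fed 2 h lie in different ranges. The fed 0 h numbers differed from each other in 39.9% of all tested probe sets, and in 9 of the 29 members, 8 of them lower in number 1 and 1 of them higher. The ratio of the 3' to the 5' Gapdh control, a sign of RNA quality, was 1.76 to 2.02 in fed 0 h, 1.95 to 2.15 in CR 48 h and 1.01 to 1.66 on the remaining 18 arrays.

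Map3k6 had the largest difference of the 29 tested members in late CR, where its signal was 10.3-fold that of fed 0 h. It encodes ASK2, an apoptosis signal-regulating kinase of the MAP3K tier that partners with its paralog ASK1, encoded by Map3k5, in stress signals to JNK and p38. Map3k6 was called in late CR and Map3k5 was not, so the 250 bases before the start of each are shown from the RefSeq promoter table (GRCm38.p6, plus strand, chr4:133240568-133240817 for Map3k6 and chr10:19934276-19934525 for Map3k5). Capitals mark the GC box, GGGCGG on either strand.
Map3k6: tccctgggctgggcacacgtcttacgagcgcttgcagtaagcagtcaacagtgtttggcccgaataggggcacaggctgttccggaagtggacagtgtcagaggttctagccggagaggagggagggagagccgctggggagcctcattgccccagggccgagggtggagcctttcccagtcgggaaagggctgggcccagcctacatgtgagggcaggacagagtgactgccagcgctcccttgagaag
Map3k5: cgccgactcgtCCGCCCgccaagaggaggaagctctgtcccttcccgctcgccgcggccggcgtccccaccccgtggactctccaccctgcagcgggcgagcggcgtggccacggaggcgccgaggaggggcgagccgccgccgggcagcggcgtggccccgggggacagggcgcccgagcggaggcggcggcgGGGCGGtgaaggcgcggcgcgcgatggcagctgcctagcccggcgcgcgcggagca
The Map3k5 window holds the GC box in both orientations and the Map3k6 window holds none. Neither window holds a match on either strand to the glucocorticoid response motif AGAACA, the E-box CACGTG or the AP-1 site TGACTCA. The same is true of the cyclic AMP response element TGACGTCA, the FOXO site GTAAACA and the TATA box TATAAA. Among all 32851 promoter windows of this length in the table, 32.7% hold the GC box, 16.1% the motif AGAACA, 12.4% the TATA box, 6.02% the E-box, 4.46% the AP-1 site, 3.17% the FOXO site and 1.55% the cyclic AMP response element. The table had 37 windows for 27 of the 31 member genes. Of these windows, 21 held a GC box, 4 the motif AGAACA, 3 the E-box and 2 the TATA box. The cyclic AMP response element was in 1 window, and the AP-1 and FOXO sites were in none. Counted by gene, with a match in any window, 18 held a GC box, 3 the motif AGAACA and 3 the E-box. The TATA box was held by 2 genes and the cyclic AMP response element by 1. No motif searched is contained in another, and a match or its absence describes these letters only.

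Map3k6 signal in fed lung at 0 h was 106.1 and 262.7 on the number 1 arrays and 112 and 342.5 on the number 2 arrays. In late CR it was 1480 and 1302 at 24 h, 2051 and 2165 at 48 h, 2044 and 2276 at 72 h, and 1526 and 2374 at 96 h. Every late CR array lay above every fed 0 h array, with a gap between 342.5 and 1302. The mean was 206 ± 116 (SD, n = 4) in fed 0 h and 1902 ± 406 (SD, n = 8) in late CR. In the fit this was a 10.3-fold rise (95% interval 7.11 to 14.9; log2 difference 3.36; limma adjusted p = 5.58e-08). By single time the rise over fed 0 h was 7.68-fold at 24 h (adjusted p = 0.000184), 11.7-fold at 48 h (9.29e-06), 11.9-fold at 72 h (6.23e-06) and 10.5-fold at 96 h (8.33e-06). These 4 comparisons share the fed 0 h arrays, and in a fit of the compared groups alone none of the 4 was called (adjusted p = 0.244, 0.08, 0.0671 and 0.0574, in the order of the hours). The Gapdh ratio, 1.76 to 2.02 in fed 0 h, was 1.95 to 2.15 at 48 h and 1.21 to 1.49 at the other late hours; its part in these values was not tested. The F test between the late times did not call Map3k6 (F = 0.994, adjusted p = 0.891) or any other member; it called 0.578% of all probe sets, and the smallest member p was that of Mapk14 (unadjusted p = 0.0049, adjusted p = 0.185).

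Map3k6 was called against either fed 0 h pair. The rise was 11.2-fold against number 1 (adjusted p = 9.31e-08) and 9.51-fold against number 2 (1.3e-06), and the pairs themselves differed by -0.23 log2 (adjusted p = 0.681). Among arrays of the high signal range alone, the 24 and 48 h arrays stood 10.2-fold above fed 0 h number 1 (adjusted p = 5.47e-07). Among those of the low range, the 72 and 96 h arrays stood 10.3-fold above number 2 (1.95e-06). The rise is as large within each range as over all arrays.

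**Figure D1:**
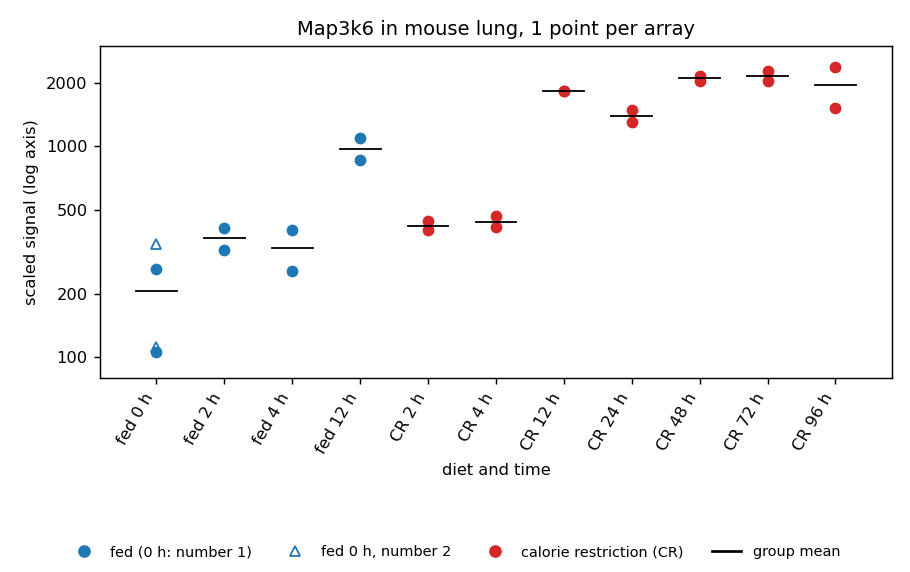
Map3k6 scaled signal on a log axis (vertical) for each of the 24 arrays, by diet and hour (horizontal); points are arrays, triangles are fed 0 h number 2, and bars are arithmetic group means. The 8 late CR arrays lie between 1302 and 2374, the CR 12 h arrays lie at 1829 and 1837, and the fed 12 h arrays, at 857.4 and 1091, lie above all other fed arrays.

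Map3k6 was also higher in fed lung at 12 h than at 0 h. The signal was 322.7 and 411.2 at fed 2 h, 255.5 and 401 at fed 4 h, and 1091 and 857.4 at fed 12 h. Both fed 12 h arrays lay above every other fed array. Fed 12 h stood 5.35-fold above fed 0 h (95% interval 3.17 to 9.03; limma adjusted p = 0.0019), the 1 member called of 29, where 1.02% of all probe sets were called higher and 0.901% lower. Without fed 12 h array a the adjusted p was 0.0589 and no member was called; without fed 0 h number 2 array b, Map3k4 and Mapkapk2 were called too, and without number 2 array a, Map3k4 was. Fed 2 h (2.01-fold, adjusted p = 0.291) and fed 4 h (1.77-fold, adjusted p = 0.353) were not called against fed 0 h; these comparisons called 0.0806% and 0.309% of all probe sets and no member, with 5 and 7 members at an unadjusted p under 0.05.

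In early CR, Map3k6 signal was 441.7 and 399.4 at 2 h, 412.9 and 466.5 at 4 h, and 1837 and 1829 at 12 h. The CR 12 h arrays lay above both fed 12 h arrays and inside the span of the late CR arrays. Against fed arrays of the same hour the difference was 1.15-fold at 2 h (95% interval 0.63 to 2.11), 1.37-fold at 4 h (0.75 to 2.51) and 1.89-fold at 12 h (1.04 to 3.47), and none was called (adjusted p = 0.926, 1 and 0.849). The mean early difference was 1.44-fold (1.02 to 2.04; adjusted p = 0.999). The late difference exceeded the early one by 7.14-fold (95% interval 4.3 to 11.9; limma adjusted p = 0.000176), and Map3k6 was the 1 member called in this test of the difference, which called 2% of all probe sets. Without fed 0 h number 2 array b, 5 members were called in it, and without array a of that number, 2 were. The share of all probe sets called in those fits is not given. The late difference in this test was taken against fed 0 h, and the early difference against fed 2, 4 and 12 h.

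The size of the Map3k6 difference moved with the fed hour it was taken against. Late CR stood 3.85-fold above the mean of fed 2, 4 and 12 h (95% interval 2.78 to 5.34; limma adjusted p = 1.63e-05). Map3k6 was the 1 member called there, beside 3.62% of all probe sets called higher and 2.73% lower. Against fed 2 and 4 h alone the difference was 5.45-fold (8.78e-07), and against fed 12 h alone it was 1.92-fold (95% interval 1.21 to 3.05) and was not called (adjusted p = 0.0788). All 8 late arrays lay above both fed 12 h arrays, but by the labelled hours fed 12 h and late CR would not share a clock hour. The labels give neither the clock hour nor the time of feeding for any array, so the effects of these on the fed arrays cannot be told apart. Without CR 72 h array a, Map2k1 was called lower as well, and without CR 96 h array a, Map4k1 was.

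Across all members, late CR against fed 0 h called 8 of 29 probe sets higher, of 7 genes, and none lower; of all probe sets 9.85% were higher and 8.24% lower. At an unadjusted p under 0.05 there were 11 members. The median member difference was 0.25 log2, against 0.00 for all tested probe sets, and 21 of 29 were above 0. Only Map3k6 of the 29 had all 8 late arrays above all 4 fed 0 h arrays, as 3.05% of all tested probe sets had. The 8 called were Map3k6, 2 probe sets of Map3k3, and 1 each of Map3k4, Map2k5, Mapk14, Mapkapk2 and Mapk8ip3.

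The count depended on the fed 0 h arrays. Of the 8, 6 were called against number 1, where 25.7% of all probe sets were called higher, and 2 against number 2, where 4.81% were; Map3k6 was the 1 called against both. Within the high signal range 4 of the 8 were called (22.7% of all probe sets higher), and within the low range 3 (7% higher). The count of 8 fell to 2 without fed 0 h number 1 array a and 3 without its array b; to 4 without CR 24 h array b, CR 72 h array a or CR 96 h array b; and to 5 without CR 48 h array b. Map3k6 and Mapk14 were called with each of the 24 arrays left out in turn; each of the other 6 lost its call in at least 1 of those fits. All 8 were above 0 against each number. For fits with an array left out, the share of all probe sets called is not given in any comparison here. Those counts therefore do not set the members apart from other probe sets.

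**Figure D2:**
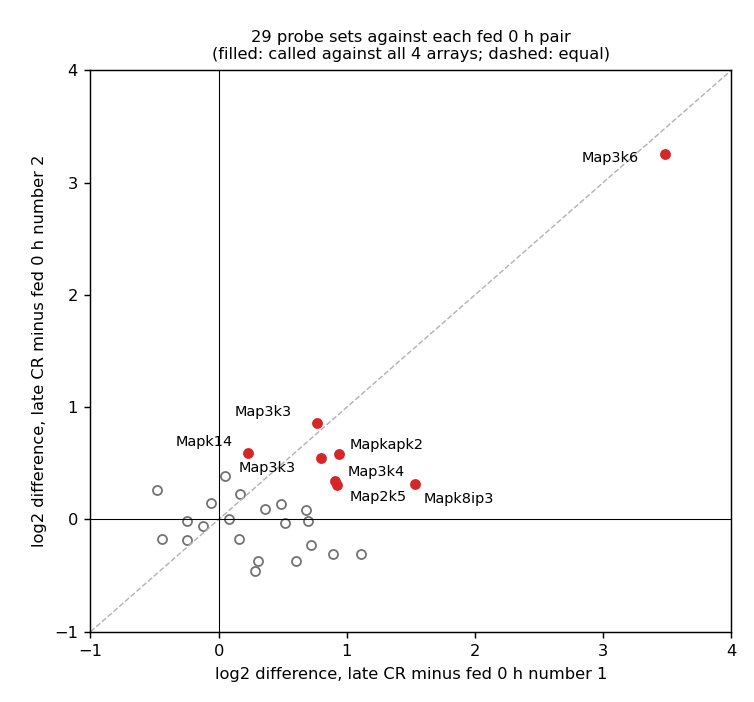
Log2 difference of each of the 29 tested probe sets between late CR and fed 0 h number 1 (horizontal) and number 2 (vertical); filled points were called against all 4 arrays together, and the dashed line marks equal differences. Map3k6 lies near the line at 3.48 and 3.25, while Mapk8ip3 lies at 1.53 and 0.32 and Mapk14 at 0.23 and 0.59.

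At the MAP4K tier neither gene was called. Map4k4, a kinase upstream of JNK, had late differences of 0.29 and 0.12 log2 on its tested probe sets, and its remaining probe set lay at the floor on all 24 arrays. Both tested Map4k4 probe sets were lower in number 1 than in number 2 of fed 0 h, by -1.20 and -0.97 log2 (adjusted p = 0.00067 and 0.000362). Map4k1, a kinase of blood cells, had a late difference of -0.30 log2 (adjusted p = 0.131); its signals were 507.4, 631.8, 464.5 and 474.8 in fed 0 h, and in late CR they ran from 291.5 to 486.8, so the groups overlapped.

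The MAP3K tier held 4 of the 8 calls, 3 of them beside Map3k6. Map3k3, also known as MEKK3, acts upstream of p38 and of Map2k5. One of its probe sets read 396.4 and 575.5 (number 1) and 518.9 and 625.8 (number 2) in fed 0 h, and 575.1, 837 and 1327 (lowest, median, highest) in late CR. Fed 0 h and late CR overlapped, and the highest late array was at 72 h. The rise was 1.59-fold (log2 difference 0.67; limma adjusted p = 0.0281), and at 72 h alone it was 1.99-fold (0.0459). Another probe set of Map3k3 read 635.3, 780.3, 668.5 and 649.9 in fed 0 h and 774.4, 1232 and 2075 (lowest, median, highest) in late CR, a 1.76-fold rise (adjusted p = 0.0356) in which 1 late array lay below the highest fed 0 h array. The remaining Map3k3 probe set differed by 0.38 log2 and was not called (adjusted p = 0.0656).

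Map3k4, or MEKK4, is a MAP3K that the Gadd45 proteins activate. Its tested probe set read 169.2 and 243.8 (number 1) and 255.3 and 357.1 (number 2) in fed 0 h, and 297.3, 382 and 521.7 (lowest, median, highest) in late CR. The number 2 span overlapped late CR and the number 1 span did not. The rise was 1.54-fold (log2 difference 0.62; adjusted p = 0.0276), but against fed 2, 4 and 12 h, which ran from 342.9 to 546.2, late CR differed by -0.13 log2 (adjusted p = 0.693). Fed 12 h, at 546.2 and 460.3, stood 2.02-fold above fed 0 h without being called (adjusted p = 0.0516). The other Map3k4 probe set was below the filter.

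The other tested MAP3K probe sets were not called in late CR. Map3k5, the paralog of Map3k6, read 175.9, 252.2, 347.2 and 342.8 in fed 0 h and 152.7, 350.1 and 523.7 (lowest, median, highest) in late CR. The groups overlapped through most of their span, and the difference was 0.35 log2 (95% interval -0.20 to 0.90; adjusted p = 0.359). Map3k1, or MEKK1, an activator of the JNK branch, differed by 0.40 and 0.25 log2 on its tested probe sets. Both of these were lower in fed 0 h number 1 than in number 2 (-1.42 and -0.95 log2; adjusted p = 5.52e-05 and 0.0404), and a further Map3k1 probe set lay at the floor on all arrays. Map3k7, or TAK1, the kinase of cytokine receptor signals, differed by -0.09 log2, and Map3k11, a mixed-lineage kinase, by -0.01 log2. Map3k2, Map3k8 and Map3k12 had no probe set past the filter.

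**Figure D3:**
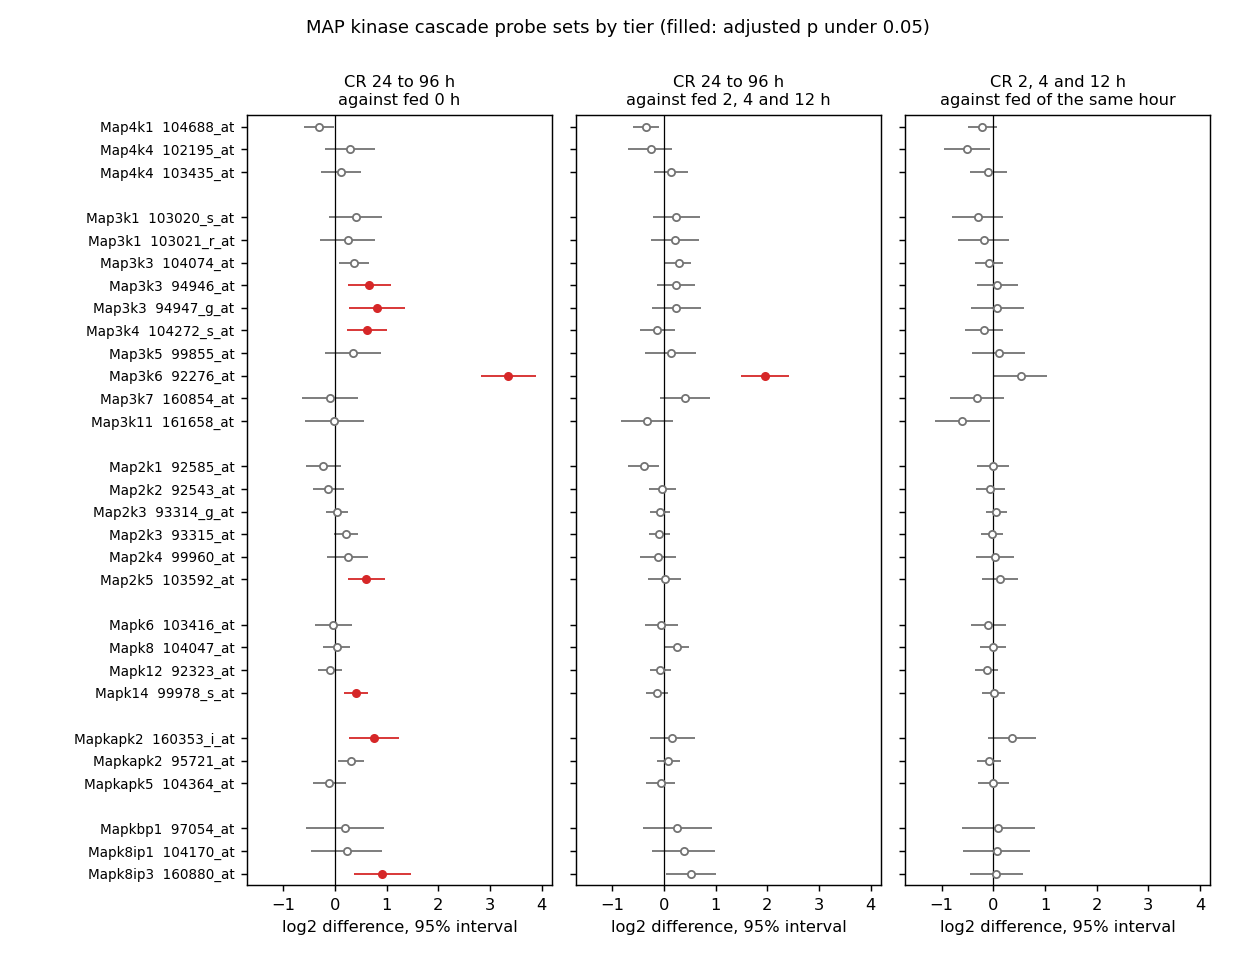
Log2 differences with 95% intervals (horizontal) for the 29 tested probe sets, ordered by tier (vertical), in late CR against fed 0 h, late CR against fed 2, 4 and 12 h, and early CR against fed arrays of the same hour; filled points were called. The first panel has 8 filled points, the second 1 (Map3k6, at 1.95) and the third none.

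At the MAP2K tier 1 of 6 tested probe sets was called. Map2k5, the kinase of the ERK5 branch, read 528.8 and 393.1 (number 1) and 705.4 and 685.7 (number 2) in fed 0 h, and 676, 857 and 1014 (lowest, median, highest) in late CR. Only the CR 48 h array at 676 lay below a fed 0 h array. The rise was 1.53-fold (log2 difference 0.61; limma adjusted p = 0.0221). Against fed 2, 4 and 12 h, which ran from 593 to 1054, the difference was 0.01 log2 (adjusted p = 0.986). Map2k1 and Map2k2, the MAP2K kinases of the ERK branch, differed by -0.22 and -0.13 log2, Map2k3, a p38 kinase, by 0.04 and 0.22 on its tested probe sets, and Map2k4, which acts on JNK, by 0.25; none was called. Map2k6 was below the filter, as were 1 probe set each of Map2k1 and Map2k3.

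Among the MAP kinases themselves 1 of 4 tested probe sets was called. Mapk14, the p38 alpha kinase, read 1951 and 1850 (number 1) and 1384 and 1578 (number 2) in fed 0 h. In CR it read 1858 and 2038 at 24 h, 1664 and 1983 at 48 h, 2911 and 2984 at 72 h, and 2226 and 2537 at 96 h. The 72 and 96 h arrays lay above all fed 0 h arrays, while the 24 and 48 h arrays overlapped them. The late mean rose 1.33-fold (log2 difference 0.41; adjusted p = 0.0166), and of the single late times only 72 h was called (1.76-fold, adjusted p = 0.00491). Within the high signal range (24 and 48 h against number 1) the difference was -0.01 log2, and within the low range (72 and 96 h against number 2) it was 0.84 log2 (adjusted p = 0.000174), so the hour and the signal range of these arrays cannot be told apart. Fed 2, 4 and 12 h ran from 2039 to 2727, all above fed 0 h, and late CR differed from them by -0.14 log2 (adjusted p = 0.44).

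The JNK kinase Mapk8 differed by 0.04 log2 in late CR (95% interval -0.22 to 0.30), the p38 gamma kinase Mapk12 by -0.09 (-0.32 to 0.14) and the atypical kinase Mapk6 (ERK3) by -0.03 (-0.39 to 0.34). None of these 3 was called, and their intervals leave room for a small change in either direction. Another Mapk8 probe set lay at the floor on all arrays. Mapk7, Mapk9, Mapk10 and Mapk13 had no probe set past the filter.

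Of the kinases downstream of p38, Mapkapk2 (MK2), which acts on the stability of cytokine messenger RNA, was called on 1 of its 2 probe sets. The called probe set read 93.51 and 212.4 (number 1) and 166.4 and 196.8 (number 2) in fed 0 h, and 167, 306 and 383.5 (lowest, median, highest) in late CR. The 2 arrays of CR 48 h lay inside the fed 0 h span and the other 6 above it. The rise was 1.69-fold (log2 difference 0.76; adjusted p = 0.0312). The other probe set, which read 3309, 3374, 3705 and 4854 in fed 0 h, differed by 0.31 log2 (adjusted p = 0.0726). It was called at 96 h, where its arrays read 5230 and 6488, above all fed 0 h arrays (1.55-fold, adjusted p = 0.0329). Mapkapk5, another kinase that MAP kinases activate, differed by -0.11 log2 (adjusted p = 0.621); it was the 1 member higher in fed 0 h number 1 than in number 2, by 0.74 log2 (adjusted p = 0.00201).

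The remaining symbols were scaffolds and binding proteins. Mapk8ip3 (JIP3), a scaffold that binds JNK and links to motor proteins, read 160.2 and 347.1 (number 1) and 556.6 and 533.1 (number 2) in fed 0 h, and 414, 697.4 and 959.7 (lowest, median, highest) in late CR. Late CR lay above number 1 on every array and overlapped number 2 through 1 array of 96 h. The rise was 1.90-fold (log2 difference 0.92; limma adjusted p = 0.0225). Against number 1 it was 2.88-fold (5.98e-05) and against number 2 it was 1.25-fold (0.496). Mapk8ip1 (JIP1), another JNK scaffold, differed by 0.23 log2, and Mapkbp1, a JNK-binding protein, by 0.20; neither was called, and their 95% intervals ran from -0.47 to 0.92 and from -0.55 to 0.96. Another Mapk8ip1 probe set was below the filter.

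**Figure D4:**
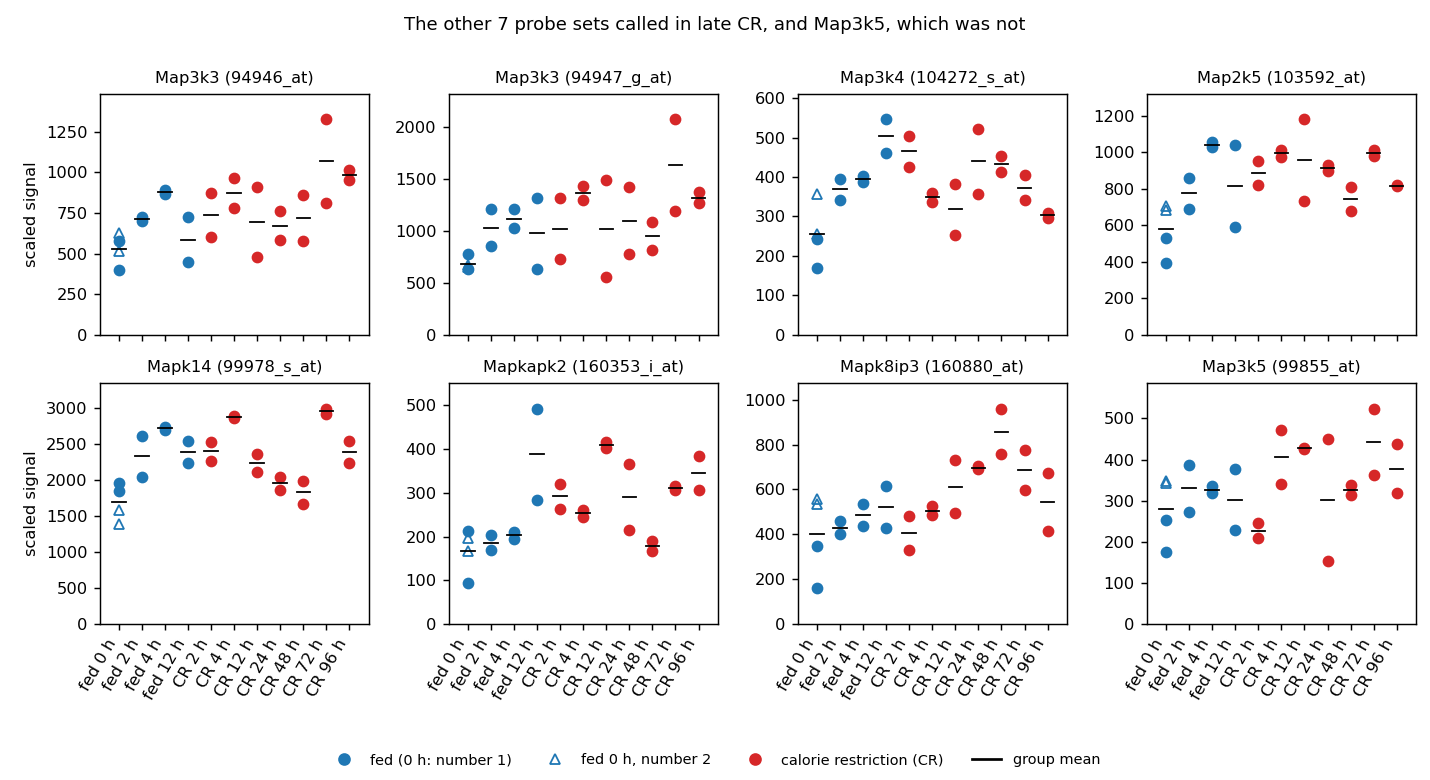
Scaled signal (vertical, from 0, each panel with its own scale) on each of the 24 arrays by diet and hour (horizontal) for the other 7 called probe sets and for Map3k5; points are arrays, triangles are fed 0 h number 2, and bars are arithmetic group means. In each panel late CR overlaps fed 0 h, and the fed 2, 4 and 12 h arrays reach into the late CR span.

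By single late time the members called were few. They were Map3k6 alone at 24 h (2.82% of all probe sets called) and at 48 h (5.44%), Map3k3, Map3k6 and Mapk14 at 72 h (5.82%), and Map3k6 and Mapkapk2 at 96 h (6.49%). Leaving out either CR 72 h array left Map3k6 as the 1 call at 72 h, and leaving out CR 96 h array b did the same at 96 h. Leaving out fed 0 h number 2 array b raised the counts to 2, 4, 8 and 4, in the order of the hours. Leaving out its array a gave 2, 3 and 6 at 24, 48 and 72 h. The share of all probe sets called in these fits is not given, so the counts do not set the members apart from other probe sets. The count at 72 h was 5 without either fed 12 h array.

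In early CR no member was called by limma in the mean of the 3 hours, where 0.0269% of all probe sets were called and 3 members had an unadjusted p under 0.05. These were Map3k6, higher, and 1 probe set of Map4k4 (-0.51 log2) and Map3k11 (-0.60 log2), lower. At single early hours the share of all probe sets called was 0% at 2 h, 0% at 4 h and 0.148% at 12 h, with no member among them and 1, 0 and 4 members at an unadjusted p under 0.05. The member differences in the early mean ran from -0.60 to 0.53 log2 with a median of -0.01. In a fit with the 19 members below the filter included, none of those 19 was called in late CR; the furthest were the Map3k8 probe sets, which disagreed in sign (-0.69 and 0.76 log2; adjusted p = 0.0542 and 0.114).

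Genes that feed, brake or follow the cascade were read in the same late comparison, each by its brightest tested probe set alone. In that comparison 9.85% of all probe sets were called higher and 8.24% lower, with a median of 0.00 log2. Of 7 tested genes of Ras and Raf input, Sos2 and Shc1 rose 1.51-fold (limma adjusted p = 0.0351) and 1.49-fold (0.00455), and none fell. The list median was 0.30 log2. Of 4 tested MAP kinase phosphatases, which remove the activating phosphates, Dusp1 rose from 5290 ± 483 (SD, n = 4) to 9185 ± 1427 (SD, n = 8), a 1.72-fold rise (1.48e-05), and Dusp16 rose 1.58-fold (0.0162). Of 5 tested further brakes, Errfi1, an inhibitor of the EGF receptor, rose 2.54-fold (5.58e-08), Spred2 2.41-fold (0.0155) and the Ras GTPase activator Rasa1 1.40-fold (0.0436), while Pebp1, which binds Raf, was 1.46-fold lower (0.0178).

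Of 11 tested genes of stress input to JNK and p38, 4 rose and none fell, with a list median of 0.17 log2. Gadd45g, which binds Map3k4, rose 1.61-fold (limma adjusted p = 0.0255), Txnip, which binds thioredoxin, 1.57-fold (7.5e-05), the adaptor Traf6 1.54-fold (0.028) and the GTPase Rac1 1.46-fold (0.0122). Of 7 listed downstream kinases 2 were tested, both of which phosphorylate the translation factor eIF4E. Both rose: Mknk2 by 2.62-fold (limma adjusted p = 5.55e-05) and Mknk1 by 2.37-fold (0.0181). Of 17 tested target transcription factors, Ets2 rose 2.15-fold (1.79e-05), Elk3 2.14-fold (0.00763), Fos 1.99-fold (0.00702) and Jun 1.31-fold (0.0361), and Atf3 was 1.54-fold lower (0.0372). The late medians of the phosphatases, the further brakes, the downstream kinases and the target factors were 0.49, 0.49, 1.32 and 0.22 log2. Some spreads were wide: Fos was 845 ± 475 (SD, n = 4) in fed 0 h and 1689 ± 952 (SD, n = 8) in late CR. Mknk1 was 204 ± 91.5 and 505 ± 279 in the same order. The genes of these lists were not split by fed 0 h number here.

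Against fed 2, 4 and 12 h fewer probe sets were called in all (3.62% higher, 2.73% lower), and the same held for these genes. Those called were Dusp1 (1.57-fold, adjusted p = 3.53e-05), Errfi1 (2.20-fold, 1.21e-07), Gadd45g (1.99-fold, 0.00145), Txnip (1.28-fold, 0.0084), Mknk2 (1.77-fold, 0.00338), Fos (1.95-fold, 0.00549) and Ets2 (1.48-fold, 0.0045), with Gadd45b, which was not called against fed 0 h. Mknk1 turned direction there, at -0.38 log2 (adjusted p = 0.505), and Rasa1 was at -0.03 log2 (0.929). Mknk2 was also called in fed 12 h against fed 0 h, the 1 gene of the 6 lists that was. In the early mean no gene of the 6 lists was called.

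Markers of other cells moved in the same late comparison with fed 0 h, where 9.85% of all probe sets were called higher and 8.24% lower. The lung's own markers were present (summed signal of the 8 surfactant, airway, alveolar and endothelial genes on the array 146500 to 216800 in fed 0 h and 113900 to 233800 in late CR), and 1 of 7 tested rose. Heart muscle markers fell in 5 of 8 genes. Their summed signal was 26430 to 33770 in fed 0 h and 12720 to 25540 in late CR, with every late array below every fed 0 h array. The fed 2, 4 and 12 h arrays (16040 to 21760) and the early CR arrays (17400 to 22440) lay below every fed 0 h array too. B cell markers fell in 3 of 4 genes (8397 to 9351 in number 1, 2220 to 3809 in number 2, 1813 to 3310 in late CR), and T and cytotoxic lymphocyte markers in 3 of 3 (1867 to 1937, 844.1 to 888.5, and 470.2 to 906.5). Fat cell markers fell in 2 of 4, smooth muscle markers in 2 of 4 and neutrophil markers in 1 of 4, while endothelial markers rose in 3 of 6 (21190 to 27830 in fed 0 h, 23680 to 32360 in late CR). Macrophage, erythroid and skeletal muscle markers had no call among 6, 3 and 2 tested genes. In number 1, number 2 and late CR the macrophage sum was 52000 to 55110, 20550 to 29740 and 24350 to 51920. In the same order the erythroid sum was 75510 to 81090, 37320 to 39740 and 35750 to 61870. The fat cell sum was 4567 to 4990, 1920 to 1938 and 1202 to 2199. For neutrophils it was 4131 to 4734, 1889 to 2051 and 1665 to 3060. For smooth muscle it was 11720 to 12540, 14820 to 17230 and 8314 to 13960. The summed skeletal muscle signal was 826 to 976.7 in fed 0 h and 7045 on CR 96 h array a, while the other 7 late arrays lay between 615.7 and 886.7. Without that array 9 members were called in late CR and Map3k6 differed by 3.44 log2 (limma adjusted p = 1.87e-07). Against fed 2, 4 and 12 h (3.62% of all probe sets higher, 2.73% lower) the marker calls differed. Heart muscle fell in 1 of 8 genes, fat cells in 1 of 4, neutrophils in 1 of 4 and smooth muscle in none. B cells fell in 4 of 4, T and cytotoxic lymphocytes in 2 of 3 and macrophages in 2 of 6. Endothelial markers rose in 2 of 6. No marker list had a gene at the floor on all 24 arrays. The part of these cells in the member values was not tested, and in bulk tissue fewer cells of a type and less RNA per cell cannot be told apart.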

How the data were processed

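Lung RNA had been hybridized to 24 single-colour Affymetrix arrays. The deposited values are linear probe set intensities, and the authors had already scaled them: every array had the same trimmed mean, 800.4 to 800.5, after the lowest and highest 2% were left out. The software that made them and its settings are not stated in the labels used here. The series' 1 array of a different platform was left out.

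Leaving out 66 control probe sets, all arrays were brought to a common median (factors 0.92 to 1.05), values under the 25th percentile (signal 80.37) were raised to it, and log2 was taken. The floor compresses changes of dim probe sets. Of the rest, 7440 probe sets passed the filter, a signal at or above the array's own median on 2 arrays or more. Gene names came from the platform annotation of GEO.

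Group means of all 11 groups were fitted in R 4.3.3 by limma 3.58.1, with lmFit and trended eBayes on 13 residual degrees of freedom. Tests were two-sided, with Benjamini-Hochberg adjustment over all tested probe sets and a threshold of 0.05. Folds are ratios of geometric means with 95% intervals; levels are arithmetic means ± SD of scaled intensity. The number of arrays, mostly 2 a group, limits the precision.

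The rule for named genes was Map3k6, each member called in a main comparison or at 1 time, every gene with several probe sets, and pathway genes called in late CR. Members and lists were chosen with earlier results of these data known. Each pathway or marker gene was read by its brightest probe set alone, by mean log2 signal over all arrays. For calls this was chosen among tested probe sets, and for summed marker signals among all on the array. The pipeline was tested on simulated data. Alternatives covered scaling, floor, filter, variance model, weights, groups in the fit, blocks, letters averaged, separate controls and each array left out; other fed controls for late CR were chosen after seeing the data. By their correlation between groups, letters a and b did not pair the arrays.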

Additional observations from a re-analysis of the deposited data

Results flagged for a closer look

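Map2k2 read 725.4 on fed 0 h number 1 array a, while the other 3 fed 0 h arrays read 480.5 to 504.2. The gap to the nearest array was 0.883 of the group's range, above Dixon's 95% critical value for 4 arrays. Chance marks about 1 in 20 groups in this way. Without this array the count of members called in late calorie restriction fell to 2, and it also fell without the other number 1 array. Map2k2 itself was not called, and a link between its value and that count was not tested.

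Map3k6 differed between the late and the early effect of calorie restriction by 2.84 log2 (95% interval 2.10 to 3.57; limma adjusted p = 0.000176). It rose in late restriction on all 8 arrays and was not called at any early hour. The late effect was taken against fed 0 h and the early effect against fed arrays of the same hour. Mean Map3k6 signal was 205.8 in fed 0 h and 974.3 in fed 12 h. In CR 12 h it was 1833, inside the late span of 1302 to 2374.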

How the results depend on the processing

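The late rise of Map3k6 kept its direction and its call under all 17 other settings (3.25 to 3.48 log2) and with each of the 24 arrays left out (3.11 to 3.67), with adjusted p between 9.06e-09 and 0.00131. The count of 8 members in late calorie restriction was 5 with no filter, 1 with array weights, 2 with only the compared groups fitted, 1 with letters averaged and late times as 1 group, 14 (12 higher, 2 lower) against fed 0 h number 1, 3 against number 2, 9 (8 higher, 1 lower) within the high signal range and 4 within the low one; leaving out 1 array gave 2 to 10. Mapk14 was -0.01 log2 within the high range (adjusted p = 0.938). Map3k6 at single late hours lost its call in 1 of 12 settings, the fit of only the compared groups (adjusted p = 0.0574 to 0.244). The count of 1 in fed 12 h against fed 0 h was 2 with quantile normalization, 5 without rescaling, 2 with a filter on the mean, 3 without the intensity trend, 0 with only the compared groups, 7 with the signal range as a block, 0 with letters averaged, 7 against number 1 and 5 against number 2; leaving out 1 array gave 0 to 3. The count of 1 in late restriction against fed 2, 4 and 12 h was 3 with array weights, 2 with only the compared groups, 7 with the range block, 0 against fed 12 h, 5 against fed 2 and 4 h, 2 within the low range and 0 within the high range; leaving out 1 array gave 1 to 2. Map3k6 was 0.94 log2 above fed 12 h alone (adjusted p = 0.0788) and 0.82 within the high range (0.191). The count of 1 in late minus early was 2 with the range block, 0 with letters averaged, 11 against number 1 and 2 against number 2; leaving out 1 array gave 1 to 5. Map3k6 in late minus early was 2.84 log2 with letters averaged (adjusted p = 0.0757). The count of 0 in the early mean, at 4 h and at 12 h did not move; at 2 h it was 1 (Map4k4) with the range block. With the letter as a replicate block, the late, early and fed 12 h counts were 8, 0 and 1. Late against the other fed hours and late minus early each gave 1, and no call of Map3k6 changed. The same letters correlated at -0.22 to 0.29 over 55 pairs of groups, 5 of them over 0.1. Such a correlation does not describe single genes. Map3k6 in fed 0 h read 106.1 and 112 on the a arrays and 262.7 and 342.5 on the b arrays. Its b array was also the higher at fed 2 and 4 h and at CR 4, 48, 72 and 96 h. Its a array was the higher at fed 12 h and at CR 2, 12 and 24 h. Apart from the settings named with their construction (fewer arrays or groups), the cause was not tested. Some of these counts hold both directions. Fed 12 h against number 2 called 3 higher and 2 lower, as did late restriction against fed 2 and 4 h. Late restriction against fed hours within the low range called 1 higher and 1 lower. Late minus early against number 1 called 10 higher and 1 lower. For most of these settings the share of all probe sets called is not given. Mostly 2 arrays a group, and the floor, limit what small changes of dim probe sets can show.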
